A study of Mus musculus with 41 samples.

Results

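The adipocyte genes described here are Adipoq, Lep, Plin1, Plin4, Cidec, Fabp4, Pparg, Lpl, Cfd and Retn, measured by RNA sequencing in the tibiae of mice. They were taken by gene symbol from the table of counts, as 10 of its 43346 genes (the rule for choosing them names the symbols and no measured value, but the list was drawn up with earlier results of these data known). All 10 were found once and all 10 passed the filter on low counts.

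Fat-storing cells of the white adipose type keep triglyceride in a large droplet coated with perilipins, take up fatty acids that lipoprotein lipase frees from circulating lipoproteins, and secrete hormones such as adiponectin and leptin. Bone holds such cells in the marrow, where they arise from stromal precursors that also give rise to osteoblasts, and marrow fat is known to increase with age. In marrow, the stromal precursors themselves express some adipocyte genes, adiponectin among them, before they hold any lipid.

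The 41 mice carried the INK-ATTAC transgene on a C57BL/6 background, and the study's methods give them as female. The transgene is a caspase that the drug AP20187 (AP) activates, driven by the promoter of p16Ink4a (Cdkn2a), so the drug acts on cells that use this promoter, and the control mice carried the transgene too. The groups were 12 young mice, 13 old mice on vehicle and 16 old mice that received AP at 10 mg per kg for 4 months from 20 months of age. By the labels the young mice were 6 to 12 months old and also received vehicle, and by the study's methods they were 6 months old and the old mice 24 months old when their bones were taken. The tissue was the shaft of the tibia, centrifuged to remove marrow elements, so marrow fat and fat or muscle attached to the bone are present only as far as they were left behind. Each mouse is 1 sample.

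Total counts ranged from 37028959 to 75942717 per mouse (median 47774880). Between the mice of any pair within a group, counts varied at least 33 times as much as counting alone would give. The test was edgeR's quasi-likelihood test, with p-values adjusted by Benjamini-Hochberg over all 19292 genes tested. A gene was called changed when its adjusted p was under 0.05 and its log2 fold change was over 0.5 in size. Levels are in CPM, the counts scaled by library size and by the TMM factor. Cdkn2a, whose promoter drives the transgene, had a mean of 0.596 CPM in young mice, 2.78 in vehicle-treated old mice and 1.75 in AP-treated old mice. It was higher in vehicle-treated old than in young mice (log2 fold change 2.22, adjusted p = 0.000332), and the decrease under AP did not pass the test (-0.67, adjusted p = 0.265). Bone genes were strongly expressed: Dmp1, an osteocyte matrix protein, had a median of at least 530.1 CPM in each group. Skeletal muscle was also present, and the summed level of 12 muscle markers ran from 9059 to 141845 CPM over the 41 mice.

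Upstream sequence is shown for the 2 genes that were called in opposite directions between young and old mice, Adipoq and Plin1, and for Lep, whose levels went with those of Plin1 between mice. Each line gives the 250 bases before the RefSeq transcription start (GRCm38.p6), written 5′ to 3′ on the strand of the gene, from chr16:23146286-23146535 (Adipoq, plus strand), chr6:29059971-29060220 (Lep, plus strand) and chr7:79732777-79733026 (Plin1, minus strand). Capitals mark matches to TTGCNNAA, a motif of the C/EBP family of adipogenic factors, on either strand.
Adipoq: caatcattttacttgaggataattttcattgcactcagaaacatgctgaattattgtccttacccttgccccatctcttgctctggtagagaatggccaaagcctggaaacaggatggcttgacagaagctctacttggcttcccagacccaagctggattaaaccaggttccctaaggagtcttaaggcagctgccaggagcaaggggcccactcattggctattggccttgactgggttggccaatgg
Lep: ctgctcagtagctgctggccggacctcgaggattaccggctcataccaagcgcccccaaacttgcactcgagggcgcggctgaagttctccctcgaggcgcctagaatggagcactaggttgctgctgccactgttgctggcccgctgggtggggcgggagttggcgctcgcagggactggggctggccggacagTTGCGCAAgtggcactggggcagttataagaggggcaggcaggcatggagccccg
Plin1: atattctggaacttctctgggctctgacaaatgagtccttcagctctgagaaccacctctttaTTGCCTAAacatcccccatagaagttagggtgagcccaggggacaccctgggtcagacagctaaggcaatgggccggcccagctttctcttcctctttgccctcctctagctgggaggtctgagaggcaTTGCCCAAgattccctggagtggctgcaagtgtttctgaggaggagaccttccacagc
Promoters were given for 8 of the 10 genes, in 11 windows, of which Pparg had 3 and Cidec 2. The C/EBP motif was found in 4 of these 11 windows, 1 each of Lep, Plin1, Cidec and Pparg, against 9.56% of 32851 promoter windows of the same length. In Plin1 there were 2 matches, from -187 to -180 and from -58 to -51, in Lep there was 1 from -55 to -48, and Adipoq had none. The core site of nuclear receptors, AGGTCA, was found in 2 of 11 (both of Pparg), against 14% of windows, and TATAAA in 1 of 11 (of Pparg), against 12.4%. The PPAR/RXR direct repeat, in which AGGTCA stands 2 times with 1 base between, was found in 0 of 11, against 0.0335% of windows. These are matches of letters, searched on both strands, and each direct repeat also holds the core site.

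The 10 genes covered a wide range of levels. Per kilobase of the length given in the table, Lpl was highest in each group, with a mean log2 CPM per kb of 6.25 ± 0.80 (SD, n = 12) in young mice, and Lep was lowest, at -3.19 ± 1.83. In young mice Adipoq came next to Lpl, at 6.05 ± 0.32. Lpl lay above it in 8 of 12 young mice, with a mean gap of 0.20 ± 1.04 (SD), which is within the spread. Adipoq lay above Fabp4 in 9 of 12 young mice, with a mean gap of 0.47 ± 0.54 (SD), which is within the spread. In vehicle-treated old mice Adipoq was the fourth, at 5.40 ± 0.55 (SD, n = 13), after Lpl, Cfd and Fabp4, and in AP-treated old mice the third, at 5.31 ± 0.54 (SD, n = 16). Below these came Plin4 and then Pparg in each group. Plin1, Cidec and Retn were close to each other and above Lep in nearly all mice. Retn and Cidec differed by 0.039 ± 0.49 in young mice, and Plin1 and Cidec by 0.055 ± 0.28 in vehicle-treated old mice, so the order within this trio does not exceed its spread. The mean gap was wider than its SD in each group for Plin4 over Pparg, which held in 9 of 12 young, 12 of 13 vehicle-treated old and 15 of 16 AP-treated old mice, and for the gene next above Lep, which exceeded Lep in 12 of 12, 13 of 13 and 16 of 16 mice. The length of Fabp4 in the table (4489 bases) equals its whole span, introns included, so its value per kb is too low and its place in this order, relative to Lpl, Adipoq and Cfd, is not settled. The length of the other genes is shorter than their span.

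**Figure D1:**
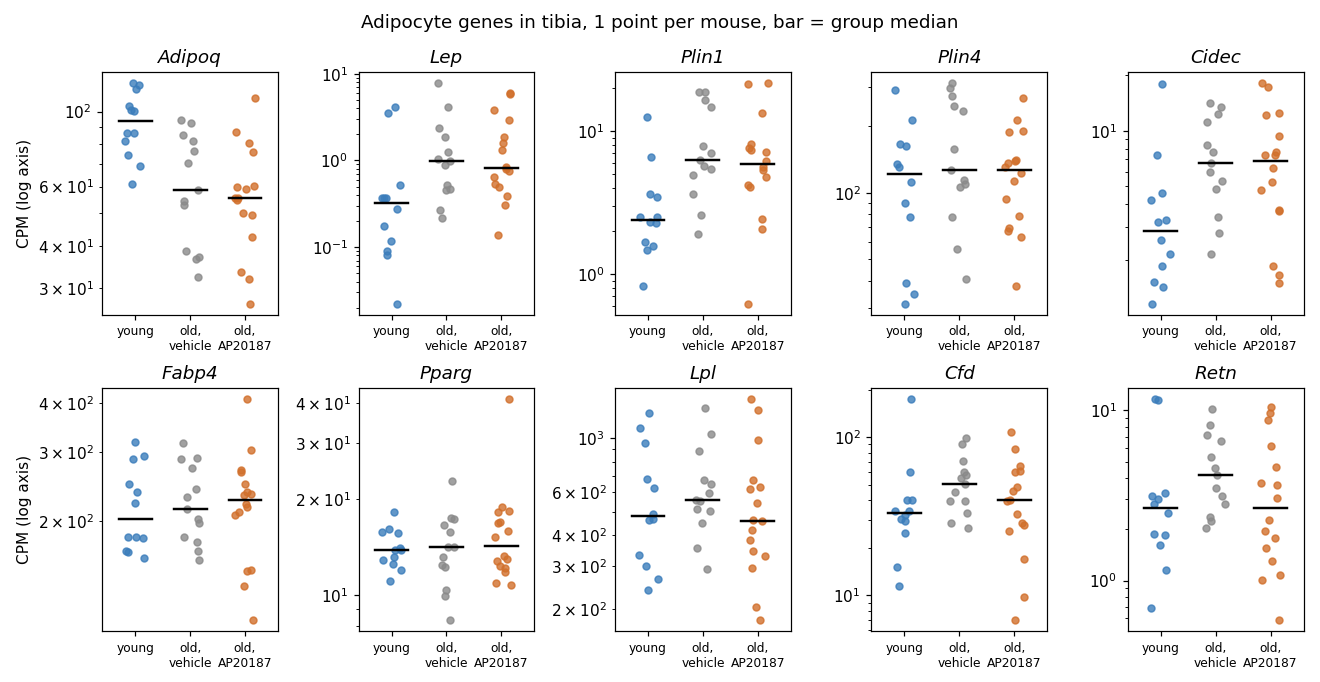
CPM of each gene on a log axis, with 1 point per mouse and a bar at the group median, for young, vehicle-treated and AP-treated old mice. Adipoq is lower in most old mice, Plin1 is higher in most old mice with wide overlap, and Fabp4 and Pparg have nearly equal medians in the 3 groups, with 1 AP-treated mouse at 41.1 CPM of Pparg.

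Among the secreted factors, Adipoq fell with age. Adipoq encodes adiponectin, a hormone that raises insulin sensitivity. It ran from 61.1 to 121.5 CPM in young mice (median 93.6), from 32.4 to 94.1 CPM in vehicle-treated old mice (median 58.8) and from 27 to 109.5 CPM in AP-treated old mice (median 55.4). The groups overlapped, but 12 of 13 vehicle-treated old mice were below the young median and 7 of 13 were below the lowest young mouse. Adipoq was 1.5-fold lower in vehicle-treated old than in young mice (log2 fold change -0.58, SE 0.19, adjusted p = 0.0238) and 1.6-fold lower in AP-treated old than in young mice (-0.68, SE 0.18, adjusted p = 0.00669). Both calls held without any single mouse, with the first between -0.65 and -0.53 on the log2 scale, but neither held with a score of marrow stromal genes as a covariate (-0.17 and -0.15). Between the old groups the difference was -0.098 (95% interval -0.45 to 0.26, adjusted p = 0.750). In such bulk samples, fewer cells of a type and less RNA per cell cannot be told apart.

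Lep encodes leptin, the hormone by which white fat signals energy stores. It was near its detection limit in several mice, from 0.0222 CPM (1 count) to 4.10 CPM in young mice (median 0.322), from 0.217 to 7.85 CPM in vehicle-treated old mice (median 0.974) and from 0.137 to 5.95 CPM in AP-treated old mice (median 0.823). The upper values of the 3 groups overlapped, and 11 of 13 vehicle-treated old and 14 of 16 AP-treated old mice exceeded the young median. The log2 fold change was 1.03 in vehicle-treated old (95% interval -0.31 to 2.38, adjusted p = 0.291) and 1.08 in AP-treated old mice (-0.21 to 2.37, adjusted p = 0.241) against young mice, and neither passed the test. The value against young mice rested on single mice. It was 0.53 without vehicle-treated mouse 22 and 1.67 without young mouse 40 (adjusted p = 0.0692).

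Cfd encodes adipsin (complement factor D), a protease of the alternative complement pathway made by fat cells. It ran from 11.5 to 174.2 CPM in young mice (median 33.1), from 26.5 to 99.0 CPM in vehicle-treated old mice (median 50.9) and from 6.98 to 107.7 CPM in AP-treated old mice (median 39.97). The highest value of all was that of young mouse 40, and the lowest that of AP-treated mouse 28. Retn encodes resistin, a small hormone of mouse fat cells. It ran from 0.688 to 11.6 CPM (median 2.67) in young mice, from 2.03 to 10.1 CPM (median 4.17) in vehicle-treated old mice and from 0.587 to 10.4 CPM (median 2.65) in AP-treated old mice. Neither gene passed the test in any comparison. Against young mice the log2 fold change in vehicle-treated old mice was 0.29 for Cfd (95% interval -0.42 to 0.9997, adjusted p = 0.611) and 0.35 for Retn (-0.51 to 1.21, adjusted p = 0.612). Without young mouse 40 these were 0.74 (adjusted p = 0.0836) and 0.66 (adjusted p = 0.277). Without vehicle-treated mouse 6 the value of Cfd was 0.19, and without vehicle-treated mouse 22 that of Retn was 0.21.

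Among the proteins of the lipid droplet, Plin1 rose with age. Plin1 encodes perilipin 1, which coats the droplet of fat cells and gates the access of lipases to it. It ran from 0.821 to 12.6 CPM in young mice (median 2.41), from 1.92 to 18.96 CPM in vehicle-treated old mice (median 6.26) and from 0.621 to 21.8 CPM in AP-treated old mice (median 5.92). In 12 of 13 vehicle-treated old mice it was above the young median, and in 4 of 13 it was above the highest young mouse. Plin1 was 2.55-fold higher in vehicle-treated old than in young mice (log2 fold change 1.35, SE 0.44, adjusted p = 0.0255), and this call held in each of the 25 fits without 1 mouse (1.20 to 1.74). In AP-treated old mice the log2 fold change against young mice was 1.14 (SE 0.42, 95% interval 0.29 to 1.997), just outside the threshold (adjusted p = 0.0530). Leaving out 1 of 7 mice brought it inside: young mouse 40 (1.54, adjusted p = 0.00944), young mouse 36 (1.27, adjusted p = 0.0424) and AP-treated mice 12, 25, 26, 27 and 28 (1.19 to 1.23, adjusted p from 0.0319 to 0.0493). Without AP-treated mouse 5 it was 0.95 (adjusted p = 0.108). Between the old groups Plin1 differed by -0.21 (95% interval -1.01 to 0.60, adjusted p = 0.770).

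Cidec promotes the fusion of droplets into the large droplet of white fat cells. It ran from 1.15 to 17.8 CPM in young mice (median 2.88), from 2.15 to 14.1 CPM in vehicle-treated old mice (median 6.67) and from 1.49 to 18.2 CPM in AP-treated old mice (median 6.86). The log2 fold change was 0.82 in vehicle-treated old (SE 0.41, adjusted p = 0.159) and 0.82 in AP-treated old mice (SE 0.39, adjusted p = 0.141) against young mice, which did not pass the test. This rested on young mouse 40, and without it the values of Cidec were 1.32 (adjusted p = 0.0112) and 1.31 (adjusted p = 0.0126). That mouse was the highest young mouse for Lep, Plin1, Plin4, Cidec, Fabp4, Cfd and Retn, but not for Adipoq, at 100.6 CPM. Among young mice it also had the highest summed level of the 12 muscle markers (110803 CPM, group median 48853). Its score of marrow stromal genes was the lowest of the young mice (6.32).

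Plin4 encodes perilipin 4, a droplet coat protein of fat, heart and skeletal muscle. It ran from 31.4 to 291.3 CPM in young mice (median 121.4), from 40.5 to 314.4 CPM in vehicle-treated old mice (median 126.9) and from 37.8 to 268.0 CPM in AP-treated old mice (median 126.5). The groups overlapped nearly in full. The log2 fold change was 0.42 in vehicle-treated old against young mice (95% interval -0.25 to 1.10, adjusted p = 0.405) and -0.37 in AP-treated against vehicle-treated old mice (-0.998 to 0.26, adjusted p = 0.465). Plin4 overlaps Hdgfrp2 in the table, and the strand setting of the counting is not given in the sources used here, so reads of the shared part are uncertain.

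Of the genes for the uptake and transport of fatty acids, neither was called. Lpl encodes lipoprotein lipase, which muscle and fat both make. It ran from 239.1 to 1260 CPM in young mice (median 478.3), from 291.4 to 1322 CPM in vehicle-treated old mice (median 556.5) and from 181.0 to 1437 CPM in AP-treated old mice (median 459.6). The log2 fold change was 0.11 in vehicle-treated old against young mice (95% interval -0.49 to 0.72). Fabp4 encodes a fatty acid carrier of fat cells, capillary endothelium and macrophages. It ran from 161.0 to 317.6 CPM in young mice (median 202.6), from 159.4 to 316.3 CPM in vehicle-treated old mice (median 215.1) and from 111.9 to 408.4 CPM in AP-treated old mice (median 226.6). Its log2 fold change was 0.035 in vehicle-treated old (95% interval -0.28 to 0.35) and 0.030 in AP-treated old mice (-0.27 to 0.33) against young mice.

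Pparg encodes the nuclear receptor that directs fat cell differentiation and acts on the promoters of many of these genes. It ran from 11.04 to 18.2 CPM in young mice (median 13.9), from 8.33 to 22.7 CPM in vehicle-treated old mice (median 14.1) and from 10.7 to 41.1 CPM in AP-treated old mice (median 14.2). The 41.1 CPM of AP-treated mouse 24 stood apart, as the next highest AP-treated mouse had 18.8 CPM. The log2 fold change of Pparg against young mice was 0.0097 in vehicle-treated old (95% interval -0.31 to 0.33) and 0.19 in AP-treated old mice (-0.11 to 0.50). Without mouse 24 the second value was 0.038.

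Over the list, 2 of 10 genes were called between vehicle-treated old and young mice, 1 higher (Plin1) and 1 lower (Adipoq), where 9.06% of all genes tested were called (4.30% higher and 4.76% lower). Their log2 fold changes had a median of 0.32, and those of all genes tested a median of 0.0066. Between AP-treated old and vehicle-treated old mice, 0 of 10 were called, and 0.0726% of all genes were (0.0259% higher and 0.0467% lower). The 10 values ran from -0.37 to 0.19 (median -0.13), and the unadjusted p was over 0.05 for each of the 10, where 23.9% of all genes tested were under it. The call of 0 of 10 held in each of the 29 fits without 1 mouse and under each other tool, although the number of all genes called, 14, moved to 0 without vehicle-treated mouse 6 and to 405 without AP-treated mouse 9. Between AP-treated old and young mice, 1 of 10 was called (Adipoq, lower), and 8.58% of all genes were (3.73% higher and 4.85% lower). The comparisons share groups and are not independent of each other.

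**Figure D2:**
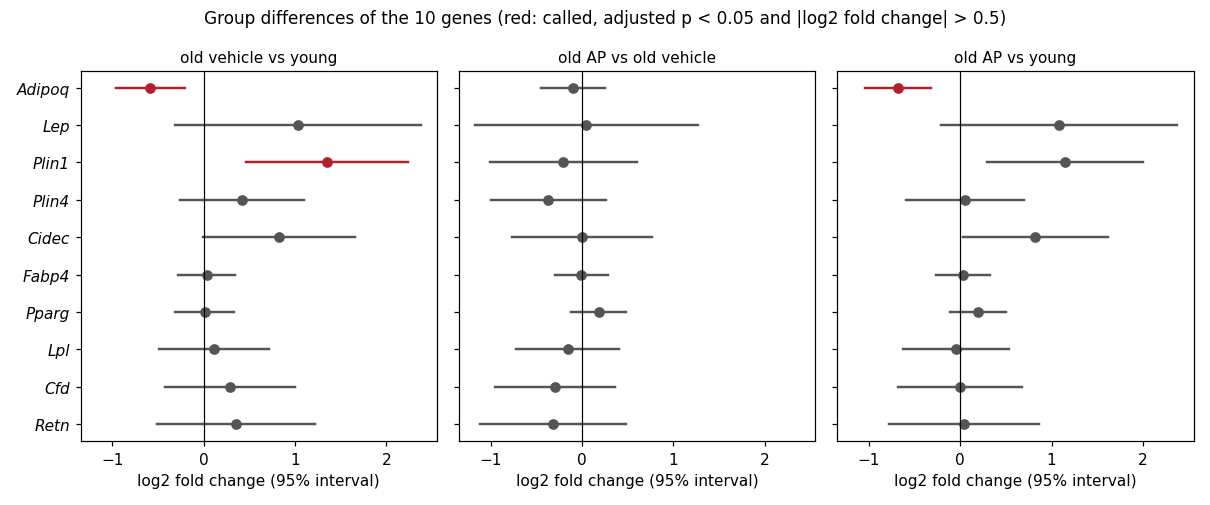
Log2 fold change (x axis) of each of the 10 genes with its 95% interval, for vehicle-treated old against young, AP-treated old against vehicle-treated and AP-treated old against young mice, with called genes in red. Adipoq lies below 0 in both comparisons with young mice, at -0.58 and -0.68, Plin1 lies at 1.35 and 1.14, and the interval of each gene covers 0 between the old groups.

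The genes did not vary as 1 unit between mice. For each gene the deviation of each mouse's log2 CPM from its group mean was taken, and the deviations of the 10 genes were correlated over the 41 mice, in 45 pairs, with permutations within groups and adjustment over the pairs. Lep, Plin1, Cidec, Cfd and Retn formed a block in which each of the 10 pairs had an r between 0.67 and 0.92. Plin1 and Cidec had r = 0.91 (rho = 0.88, adjusted permutation p = 4.09e-05, r = 0.90 without the 2 mice farthest from the median). Cidec and Cfd had r = 0.92 (rho = 0.92, r = 0.90 without 2 mice), and Lep and Retn r = 0.82 (rho = 0.73, r = 0.77 without 2 mice), with the same adjusted p, which comes from the smallest p these permutations can give (1e-05). Young mice 36 and 40 were the highest of their group in Lep, Plin1, Cidec, Cfd and Retn, and AP-treated mouse 28 was the lowest of its group in Plin1 and Cfd. These deviations share the library size of each mouse.

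Adipoq followed this block only in part. Of the 9 correlations of Adipoq with the other genes, 5 passed an adjusted permutation p of 0.05 for Pearson's r. The r was 0.61 with Plin1 (rho = 0.58, adjusted p = 0.00018), 0.48 with Cfd (rho = 0.48, adjusted p = 0.00399) and 0.45 with Cidec (rho = 0.45, adjusted p = 0.0070). It was negative with Plin4 (r = -0.53, rho = -0.55, adjusted p = 0.00108) and with Lpl (r = -0.43, rho = -0.42, adjusted p = 0.00891). Without the 2 mice farthest from the median of Adipoq these 5 values were 0.49, 0.34, 0.35, -0.56 and -0.42. Within groups the r with Plin1 was 0.48 in young, 0.48 in vehicle-treated old and 0.76 in AP-treated old mice, and that with Plin4 was -0.56, -0.79 and -0.32. With Lep, Fabp4 and Retn the r was 0.24, 0.26 and 0.33 and did not pass, while the rho of Retn was 0.33 (adjusted p = 0.0466). With Pparg Pearson's r was 0.30 (adjusted p = 0.114) and rho 0.52 (adjusted p = 0.00363), and within groups r was 0.58, 0.66 and 0.0026, the last in the group that holds mouse 24.

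Plin4 and Lpl formed the other pair, with r = 0.80 (rho = 0.80, adjusted p = 4.09e-05, r = 0.77 without 2 mice). Plin4 was nearly independent of Plin1 (r = 0.020) although both code for droplet coat proteins. Fabp4 lay between, with r of 0.54 with Lpl, 0.47 with Plin4 and 0.53 to 0.65 with the 5 genes of the block, all with an adjusted p under 0.05.

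**Figure D3:**
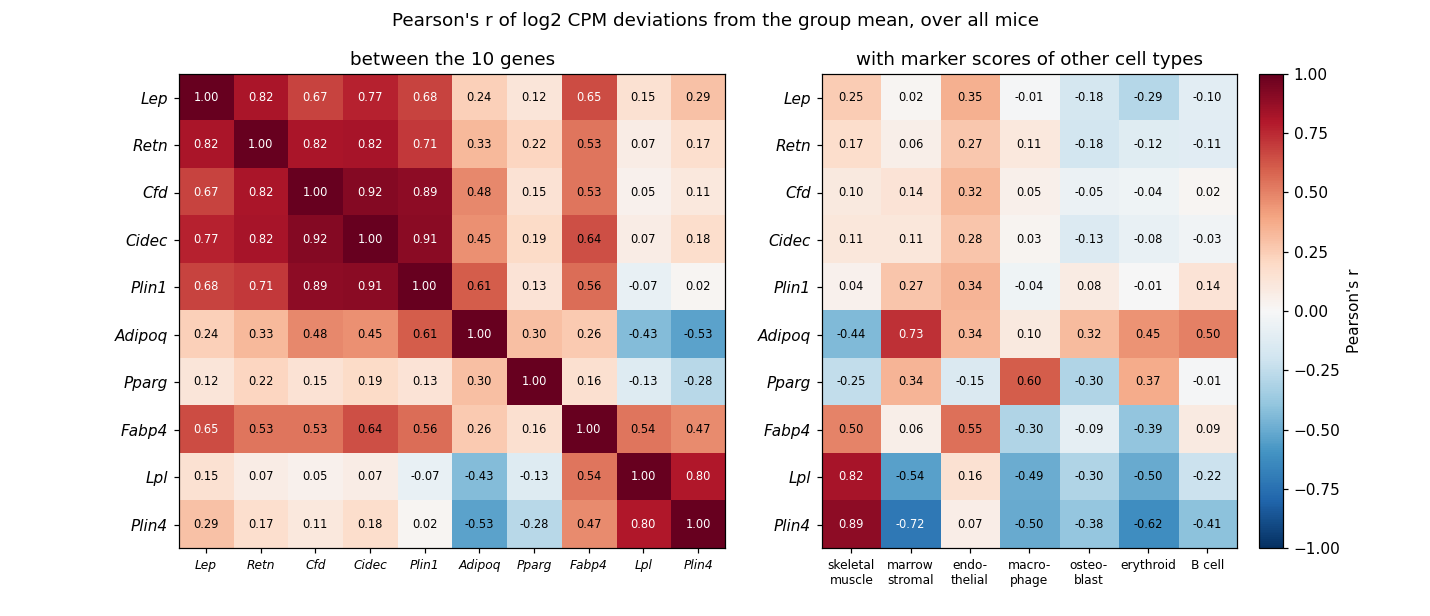
Pearson's r, from -1 (blue) to 1 (red), between the deviations of log2 CPM from group means over 41 mice, for each pair of the 10 genes (left) and for each gene with the mean log2 CPM of marker genes of 7 cell types (right). Lep, Retn, Cfd, Cidec and Plin1 form a block (0.67 to 0.92), Plin4 and Lpl go with skeletal muscle (0.89 and 0.82), and Adipoq goes with the marrow stromal score (0.73).

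The same deviations were set against scores of other cell types, each the mean log2 CPM of a list of markers without the 10 genes, in 70 relations. Plin4 and Lpl went with skeletal muscle, with r = 0.89 (rho = 0.90, adjusted permutation p = 0.00014, r = 0.87 without 2 mice) and r = 0.82 (rho = 0.82, same adjusted p, r = 0.80 without 2 mice). With the muscle score as a covariate, the log2 fold change of Plin4 in vehicle-treated old against young mice was 0.091 (adjusted p = 0.715) in place of 0.42, and that between the old groups was 0.20 in place of -0.37. With the marrow stromal score as a covariate, Plin4 turned negative in vehicle-treated old against young mice. It was then called lower in AP-treated old against young mice (values in the last section). Adipoq went with the marrow stromal score, a list with Cxcl12, Lepr and Kitl in it (r = 0.73, rho = 0.69, adjusted p = 0.00014, r = 0.71 without 2 mice), and against the muscle score (r = -0.44, rho = -0.44, adjusted p = 0.0250, r = -0.38 without 2 mice). Plin4 went against the stromal score (r = -0.72, rho = -0.71, adjusted p = 0.00014, r = -0.66 without 2 mice).

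Fabp4 went with the endothelial score (r = 0.55, rho = 0.47, adjusted p = 0.00404, r = 0.46 without 2 mice) and with muscle (r = 0.50, rho = 0.52, adjusted p = 0.00875, r = 0.45 without 2 mice). Pparg went with the macrophage score (r = 0.60, rho = 0.41, adjusted p = 0.00376), and r was 0.45 without the 2 mice farthest from the median of that score. For Lep, Plin1, Cidec, Cfd and Retn, none of the 35 relations with the 7 scores passed an adjusted p of 0.05 for Pearson's r, with values from -0.29 to 0.35. By rank, Lep (rho = 0.46, adjusted permutation p = 0.0142) and Plin1 (rho = 0.39, adjusted permutation p = 0.0396) passed with the endothelial score. With that score Cidec, Cfd and Retn had a rho of 0.36, 0.38 and 0.36 and did not pass. Schwann cell markers were not among these 7 scores. The summed level of 6 of them was highest in AP-treated mouse 5 (454.4 CPM, group median 138.9) and vehicle-treated mouse 22 (233.2 CPM, group median 140.8). Mouse 5 was also the highest AP-treated mouse for Lep, Plin1, Cidec and Cfd, and mouse 22 the highest vehicle-treated mouse for Lep and Retn. In young mice the highest sum was that of mouse 33 (178.6 CPM, group median 128.3), where mouse 40 was the highest for these 5 genes. The part of these markers in the values was not tested.

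**Figure D4:**
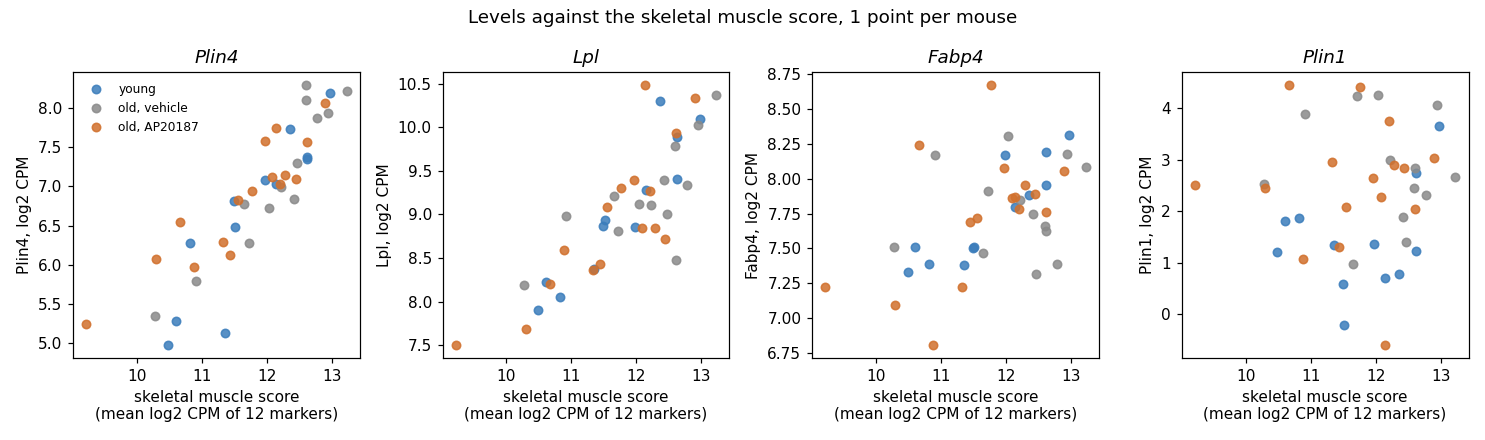
Log2 CPM of Plin4, Lpl, Fabp4 and Plin1 (y axes) against the mean log2 CPM of 12 skeletal muscle markers (x axes), with 1 point per mouse, colored by group. Plin4 and Lpl rise with the muscle score in all 3 groups, Fabp4 does so less closely, and Plin1 shows no such relation (r of deviations 0.89, 0.82, 0.50 and 0.041).

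Both calls were then set beside these scores. The muscle markers were higher in vehicle-treated old than in young mice for 2 of 12 genes (Atp2a1 and Acta1) and lower for 0, where 4.30% of all genes tested were called higher and 4.76% lower, and their summed level had a median of 48853 CPM in young, 79908 in vehicle-treated old and 55704 CPM in AP-treated old mice. With the muscle score as a covariate, Adipoq stayed called in both comparisons with young mice (-0.51, adjusted p = 0.0226, and -0.71, adjusted p = 0.00106) and Plin1 was called in both (1.35, adjusted p = 0.0197, and 1.20, adjusted p = 0.0339). With the marrow stromal score as a covariate, which was added after the data had been seen, Adipoq was no longer called (-0.17, adjusted p = 0.491, and -0.15, adjusted p = 0.494), while Plin1 was called in both (1.53, adjusted p = 0.0211, and 1.36, adjusted p = 0.0266). The summed level of the stromal list was itself lower in old mice, with a median of 3730 CPM in young, 2815 CPM in vehicle-treated old and 2825 CPM in AP-treated old mice. Cxcl12 had the highest level of the list (median 1770 CPM in young and 1111 CPM in vehicle-treated old mice). The covariate was the mean log2 CPM of the list instead. Of its 14 genes, 4 were called lower and 1 higher in vehicle-treated old against young mice. Hp and Apoe, not called, had higher means there (398 against 303 and 510 against 427 CPM).

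Within a mouse, the ratio of 2 genes is free of the scaling of the library, and ratios to Adipoq were computed after the data had been seen. The mean log2 ratio of Plin1 to Adipoq, taken as the difference of their log2 CPM, was -5.09 ± 0.91 (SD, n = 12) in young, -3.06 ± 0.93 (SD, n = 13) in vehicle-treated old and -3.27 ± 0.91 (SD, n = 16) in AP-treated old mice. It was higher in vehicle-treated old than in young mice by 2.03 (two-sided permutation test, adjusted p = 0.000487 over 15 tests), and 13 of 13 mice were above the young median. The ratios of Cidec, Cfd, Fabp4 and Pparg to Adipoq were higher by 1.71, 1.19, 0.69 and 0.62 (adjusted permutation p from 0.000487 to 0.00452). Old AP-treated mice also had higher ratios than young mice for these 5 genes, by 0.74 to 1.82 (adjusted permutation p from 0.00015 to 0.0446). Between the old groups none of the 5 ratios passed (differences from -0.39 to 0.24, adjusted permutation p from 0.231 to 0.879). The 5 ratios share their denominator, so they are not independent of each other or of the call of Adipoq.

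**Figure D5:**
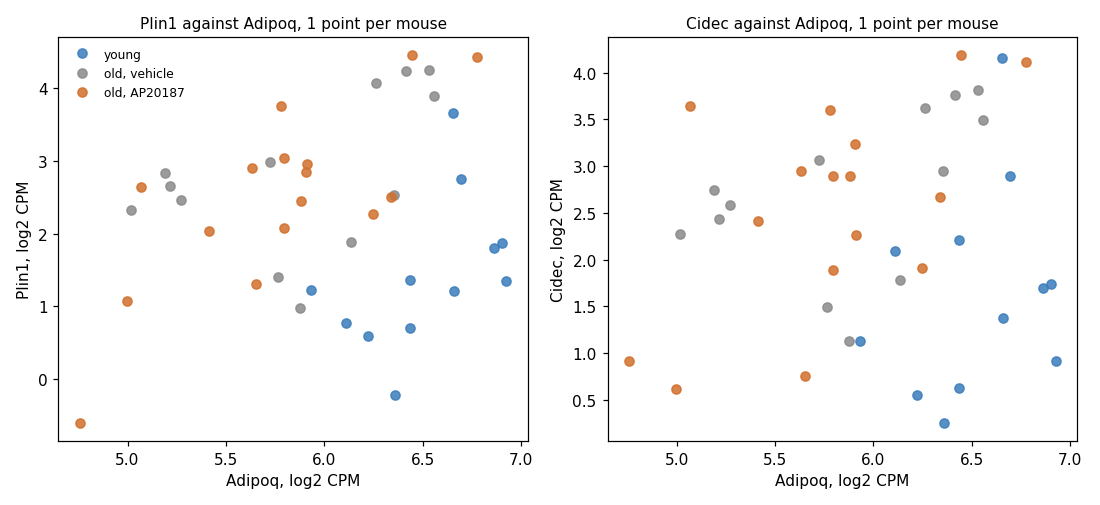
Log2 CPM of Plin1 (left) and of Cidec (right) against log2 CPM of Adipoq, with 1 point per mouse, colored by group. The r of deviations with Adipoq in young, vehicle-treated and AP-treated old mice was 0.48, 0.48 and 0.76 for Plin1 and 0.25, 0.47 and 0.57 for Cidec, and old mice lie above and to the left of young mice, with a mean log2 ratio of Plin1 to Adipoq of -3.06 and -3.27 against -5.09.

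The genes whose deviations were most like those of Adipoq, outside the 10, included Chrdl1 (r = 0.83), Gpm6a (0.77), Il7 (0.75), Cxcl12 (0.74), 2410004P03Rik (0.74), Cyp4b1 (0.73), Smoc1 (0.71), Enpep (0.71) and Hcar1 (0.71), as a description over 41 mice, and Il7 and Cxcl12 are in the stromal list. Cxcl12, the chemokine that retains blood stem cells in marrow, was lower in vehicle-treated old than in young mice (1114 against 1704 CPM, log2 fold change -0.61, adjusted p = 0.00165). Chrdl1, a secreted antagonist of BMPs, was lower too (27.1 against 39.3 CPM, -0.54, adjusted p = 0.0114). The other 7 named here were not called in that comparison. Of these, Gpm6a (-0.496, adjusted p = 0.0171) missed only the threshold on the fold change. Il7, a cytokine needed for B cell development, was at -0.44 there (adjusted p = 0.0586) and was called lower in AP-treated old against young mice (-0.69, adjusted p = 0.00210).

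For the other 9 genes the most alike genes were named after their values had been seen. For Plin1 they were Lgals12 (r = 0.91), Slc7a10 (0.90) and Ankef1 (0.86), for Cidec Pck1 (0.88), Slc7a10 (0.88) and Lgals12 (0.88), and for Cfd and Retn Tmem45b (0.83 and 0.87). Lgals12 is a galectin of lipid droplets, and Pck1 makes the glycerol backbone for triglyceride in fat. For Lep the closest gene was Nnat (0.89). For Plin4 they included Acacb (0.96) and Crat (0.95), and for Lpl Ldhb (0.96), Idh2 (0.96) and Acaa2 (0.95). For Fabp4 they were Cav1 (0.83), Sparcl1 (0.81) and Pecam1 (0.81), the last a surface marker of endothelium. For Pparg they were Emr4 (r = 0.85, rho = 0.73), Nxpe4 (r = 0.84, rho = 0.72) and Pou2f2 (r = 0.83, rho = 0.65), of which Emr4 marks myeloid cells.

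Other genes of fat cells were followed in lists by role, in vehicle-treated old against young mice, where 4.30% of all genes tested were called higher and 4.76% lower. With 9 to 16 genes tested in a list, 1 call is near that share. Of 14 other adipogenic transcription factors, 3 were called higher and 0 lower (median log2 fold change 0.17). They were Klf5, an early factor of fat cell differentiation (0.71, adjusted p = 0.000153), Rxra, the partner of Pparg (0.56, adjusted p = 0.00306), and Nr1h3, the oxysterol receptor LXR alpha (0.57, adjusted p = 0.00875). Of 14 genes of the droplet and lipolysis, 2 were higher and 0 lower (median 0.23): Lipe, the hormone-sensitive lipase (0.59, adjusted p = 0.000465), and Pnpla2, the lipase that starts the breakdown of triglyceride (0.54, adjusted p = 0.0453). Of 16 genes of fatty acid and triglyceride synthesis, 2 were higher and 0 lower (median 0.42): Acaca, which commits acetyl-CoA to fatty acid synthesis (0.58, adjusted p = 4.03e-06), and Fasn, the fatty acid synthase (0.51, adjusted p = 0.0110). Among AP-treated mice Rxra and Pnpla2 were highest in mouse 9 and lowest in mouse 19, as were the muscle markers Ckm and Atp2a1. Nr1h3 was highest in vehicle-treated mouse 8 and AP-treated mouse 24, as were the macrophage markers C1qa, C1qb and C1qc. Klf5, Lipe, Acaca and Fasn were highest in AP-treated mice 19, 5, 17 and 17. The part of other cells in these calls was not tested.

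Of 10 genes for the uptake of fatty acid and glucose, 1 was higher, Aqp7, the channel through which fat cells release glycerol (7.56 against 3.88 CPM, log2 fold change 0.96, adjusted p = 0.00603), and 0 were lower (median 0.20), where 4.30% of all genes tested were called higher and 4.76% lower. Of 12 other secreted factors 0 were called in either direction by edgeR's quasi-likelihood test, and 1 was at an unadjusted p under 0.05, as were 31.8% of all genes tested (median 0.33). Of 11 receptors for hormones of or on fat cells, Cdh13, which binds adiponectin, was higher (0.61, adjusted p = 0.0437) and Lepr, the leptin receptor and a marker of marrow stromal cells, was lower (-0.63, adjusted p = 0.000436), with a median of 0.18. Adipor2, an adiponectin receptor, was at 0.36 (adjusted p = 0.000753), below the threshold on the fold change. Of 14 further genes tested that were listed for white fat, 3 were higher and 0 lower (median 0.33): Aoc3 (0.54, adjusted p = 0.0253), Acvr1c, a receptor of the TGF-beta family (0.91, adjusted p = 0.0270), and Orm1 (0.56, adjusted p = 0.0348). Among AP-treated mice Orm1 was highest in mouse 19 and lowest in mouse 27, as were the neutrophil markers S100a8, Ngp and Ltf. Aoc3 and Acvr1c were highest in AP-treated mice 29 and 5. Cdh13 was highest in AP-treated mouse 9 and lowest in mouse 19, as were the muscle markers Ckm and Atp2a1. The part of other cells in these calls was not tested.

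The list of brown and beige fat held genes of very different levels. Ucp1, the uncoupling protein of brown fat, had 145 counts in all 41 mice and was at 0 in 3 young, 8 vehicle-treated old and 8 AP-treated old mice. Cox8b and Cox7a1, subunits of cytochrome c oxidase that skeletal muscle also makes, had medians of 231.6 and 146.6 CPM in young, 219.2 and 136.7 CPM in vehicle-treated old and 165.4 and 114.7 CPM in AP-treated old mice. Of the 12 genes of this list 9 were tested, and 1 was called, Dio2, which activates thyroid hormone (lower, -0.82, adjusted p = 0.00167). At an unadjusted p under 0.05 by edgeR's test, 2 were higher and 1 lower, where 31.8% of all genes tested were under it. Prdm16 and Tbx1, not called, had higher means in vehicle-treated old than in young mice (7.59 against 5.40 and 6.59 against 3.25 CPM). Of 14 genes of marrow stromal cells and adipogenic precursors, 4 were lower and 1 higher (median -0.36), where 4.76% of all genes tested were called lower and 4.30% higher. The 4 were Grem1, a BMP antagonist (12.9 against 35.9 CPM, -1.48, adjusted p = 1.86e-08), Pdgfra, a growth factor receptor of mesenchymal cells (-0.83, adjusted p = 0.000349), Lepr and Cxcl12, and the other was Cxcl14.

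Between AP-treated old and vehicle-treated old mice 0 genes were called in any of these 9 lists, with medians from -0.24 to -0.00074, by edgeR's quasi-likelihood test. At an unadjusted p under 0.05, there were 14 of their 110 genes tested, against 23.9% of all genes tested. Of these 14, 6 were among the 14 adipogenic transcription factors, each with a negative log2 fold change, and each other list held 0 to 2, but none passed the adjusted test. In AP-treated old against young mice Klf5 (0.71, adjusted p = 0.000103), Acaca (0.55, adjusted p = 4.49e-06), Aqp7 (0.94, adjusted p = 0.00648), Acvr1c, Orm1, Slc7a10 and Aoc3 were called higher. Dio2, Agt, Metrnl, Grem1 (-1.57, adjusted p = 8.16e-10), Pdgfra, Cxcl12 and Il7 were called lower.

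Markers of other cells in the same bones moved with age too. The muscle and stromal scores were examined as covariates only for the adipocyte genes named at the start, from Adipoq to Retn. For these genes the part of cells other than muscle and stroma was not tested. For the genes of the other lists above, the part of muscle, stroma or any other cells was not tested. In vehicle-treated old against young mice, where 4.76% of all genes tested were called lower and 4.30% higher, 6 of 8 B cell markers were called lower, 3 of 8 erythroid markers were lower, 2 of 8 osteoblast markers were lower (Bglap and Ibsp), and of 8 osteocyte markers 2 were higher and 1 lower. Of 9 endothelial, 8 macrophage, 8 neutrophil, 7 osteoclast and 6 Schwann cell markers 0 were called in that comparison by edgeR's quasi-likelihood test, with 3, 2, 2, 0 and 1 at an unadjusted p under 0.05, where 31.8% of all genes tested were. In AP-treated old against young mice the Schwann cell markers called higher included Prx, Mbp and Ncmap. Adipoq also went with the B cell score between mice (r = 0.50, rho = 0.48, adjusted p = 0.0114, r = 0.52 without 2 mice) and with the erythroid score (r = 0.45, rho = 0.47, adjusted p = 0.0275, r = 0.43 without 2 mice). The B cell score holds Ebf1, which is also in the list of adipogenic transcription factors.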

How the data were processed

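Total RNA of the centrifuged tibia shafts was sequenced by the authors on a HiSeq2000. The submitters' processing notes name TopHat2 2.0.6, HTSeq and the build GRCm38, and the strand setting and annotation release are not given in the sources used here. The authors deposited raw read counts per gene for all 41 mice, with no normalization. All 37 mitochondrial genes of the table are at 0 in each mouse. The labels name no batch, so a batch that followed the groups cannot be told apart from them. P-values of group differences set those differences against the spread between these mice.

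The members and lists were chosen with earlier results of these data known. Counts were scaled by TMM, filtered and tested in edgeR 4.0.16 (R 4.3.3). The filter by expression kept 19292 of 43346 genes, and the quasi-likelihood test was run in a single model of the 3 groups, with adjustment over all genes tested and 38 residual degrees of freedom. Log2 CPM used a prior count of 2. Correlations and ratios were tested with 100000 permutations (smallest p 1e-05), those of deviations by permuting mice within groups. Named were all 10 genes, at most 4 genes of each list by smallest p in vehicle-treated old against young mice (Pnpla2, Cxcl14, the muscle, bone and Schwann cell genes and the genes called in the AP-treated mice were named in addition, after their values were seen), Cdkn2a and the genes among the 10 most like Adipoq, apart from some genes that are not reported here. List symbols not found in the table were matched by gene ID (3 symbols). Alternatives were DESeq2 1.42.0, limma-voom 3.58.1, other scaling, filters, models and covariates, and each mouse left out. The scripts were tested on simulated data. Promoter sequences are from RefSeq.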

Additional observations from a re-analysis of the deposited data

How the results depend on the processing

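The number of the 10 genes called in vehicle-treated old against young mice was 2 (Adipoq and Plin1) in the main test, 4 with limma-voom and quality weights (Lep, at 1.87, and Cidec, at 1.29, in addition), 1 with the marrow stromal score as a covariate, and 2 to 3 when each mouse was left out in turn. In AP-treated old against young mice it was 1 (Adipoq) in the main test, 2 with DESeq2 or the muscle score (Plin1 in addition), 4 with limma-voom (Lep, Plin1 and Cidec in addition), 2 with the stromal score (Plin1, and Plin4 lower), and 1 to 3 when each mouse was left out. Between the old groups it was 0 under each alternative run and without each mouse, while the number of all genes called went from 14 to 216 with DESeq2, 31 with limma-voom, 33 with no threshold on the fold change, 409 with the stromal score, 1 with the muscle score, and 0 with no filter or a model of 2 groups. Of all genes, 1748 and 1655 were called in vehicle-treated and AP-treated old against young mice, 3736 and 3437 without a threshold on the fold change. With the threshold and the stromal score, 1158 were called in the former and 2139 in the latter. The share of calls that were higher moved by over 10 percentage points from 35.7% in the comparison of the old groups, to 54.6% with DESeq2, 48.4% with the stromal score and 0% with the muscle score (1 call). In a permutation test of mean log2 CPM with an unadjusted p, Lep (1.54, p = 0.0284, and 1.599, p = 0.0171) and Cidec (1.07, p = 0.0144, and 0.92, p = 0.0410) were also under 0.05 in vehicle-treated and AP-treated old against young mice.

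The values that changed sign were not called in the main test, and of the values they turned to 1 was called, that of Plin4 in AP-treated old against young mice with the stromal score (-0.83, adjusted p = 0.0203). In vehicle-treated old against young mice they were Fabp4 (-0.014) and Lpl (-0.069) with the muscle score, Plin4 (-0.48) and Lpl (-0.39) with the stromal score, and Pparg (-0.025) in the permutation test. Without single mice Pparg ranged from -0.065 to 0.059, Fabp4 from -0.013 to 0.094 and Lpl from -0.021 to 0.27. In AP-treated old against vehicle-treated old mice they were Cidec (0.057) and Fabp4 (0.066) with limma-voom, Plin4 (0.20), Cidec (0.082), Fabp4 (0.083) and Lpl (0.13) with the muscle score, and Adipoq (0.019), Cidec (0.015) and Fabp4 (0.0011) with the stromal score. Without single mice Lep ranged from -0.19 to 0.55, Cidec from -0.15 to 0.11 and Fabp4 from -0.086 to 0.043. In AP-treated old against young mice they were Cfd with DESeq2's size factors (0.0032), DESeq2 (0.0031), limma-voom (0.42), the muscle score (0.066), the stromal score (0.042) and the permutation test (0.051), and Lpl with limma-voom (0.061) and the muscle score (0.063). Without single mice Retn ranged from -0.13 to 0.34, Lpl from -0.19 to 0.11, Plin4 from -0.054 to 0.24, Fabp4 from -0.051 to 0.089 and Cfd from -0.16 to 0.45. The cause of these changes was not tested. A prior count of 0.5 left 5 of the 9 correlations with Adipoq under 0.05. Counts of 1 to 329 per mouse limit what Lep can show.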
